A study of Mus musculus with 12 samples.

Results

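S100 proteins are small calcium sensors of the EF-hand family, built from paired calcium-binding loops, that act mostly as dimers. On binding calcium they expose a surface that grips partner proteins such as annexins, cytoskeletal proteins and enzymes, and some are also released from cells and act on receptors. S100b is a classical marker of glia in the brain, in astrocytes and also in part of the oligodendrocyte lineage, and in the cerebellum it is known from Bergmann glia. Most S100 genes sit together in one block of the mouse genome, from which S100b stands apart.

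The genes described here are S100b, S100a1, S100a4, S100a6, S100a10, S100a11, S100a13 and S100a16, taken by symbol as 8 of the 24421 rows of the deposited expression table. The libraries were made from cerebellar cells that had been sorted for GFP out of Aldh1l1-GFP reporter mice. Mice of 4 ages were sampled, named P1, P7, P14 and P28 for the postnatal day, with 3 libraries at each age and 12 in all. All mice carried the reporter, in which GFP is driven by regulatory sequence of the astrocyte gene Aldh1l1, and were kept on the C57/BL6J background with both sexes used, so the groups differed in age alone as far as they are described. What the labels list as replicates is not said to be separate animals, and the p-values below measure the spread between these libraries.

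Values are normalized counts, that is, reads counted on a gene divided by one factor per library. A library held 6399499 to 14733985 such reads, and replicate 2 of P7 was the shallowest. Genes with values of 10 or more in 3 or more libraries were tested by limma on log2(value + 1), 15464 in all, and the 8 members were among them. A gene is said to have risen or fallen only where its Benjamini-Hochberg adjusted p over all of these genes was under 0.05. Fold changes are on the log2(value + 1) scale, which understates the change of genes with low values.

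The sorted cells carried the astrocyte markers at every age. All 10 genes of that list were detected, led by the glutamate transporters Slc1a3 and Slc1a2. Their summed normalized count was 61511 to 78191 in the P1 libraries, 29311 to 53829 in those of P7, 152775 to 189145 in those of P14 and 349221 to 408484 in those of P28. Markers of other cells were present too, and their part in the results below was not tested. The 13 oligodendrocyte lineage genes, among them the myelin gene Mbp, summed to 8301 to 13083 in P1 libraries, 24794 to 37167 in P7, 349066 to 399613 in P14 and 106048 to 146902 in P28 libraries. The 8 meningeal fibroblast genes, led by the collagens Col1a1 and Col1a2, summed to between 8580 and 35516.5 at P1 and to between 4922 and 5433 at P28. Choroid plexus and ependymal genes, led by Ttr and Foxj1, ran from 894 to 2089 at P1 and then varied widely between libraries of one age, from 1309.7 to 110080.4 at P14 and from 18163 to 183681 at P28. The 9 neuronal genes, led by Snap25 and Rbfox3, summed to 1222.5 to 3217.5 at P1 and 22746 to 43374 at P14. Over all 12 libraries the 11 microglial and macrophage genes, led by Csf1r and P2ry12, summed to 788 to 3773 and the 11 endothelial and mural genes, led by Vtn and Pdgfrb, to 2946 to 14609.7. Of the 5 red blood cell genes, the 4 globin genes were at 0 throughout. The other gene, Alas2, was detected at every age, with means of 53.1, 61.2, 30.6 and 14.9 from P1 to P28. Why the globin genes had no reads was not tested. In bulk samples such as these, a change in the number of cells of a type and a change in RNA per cell cannot be told apart.

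**Figure D1:**
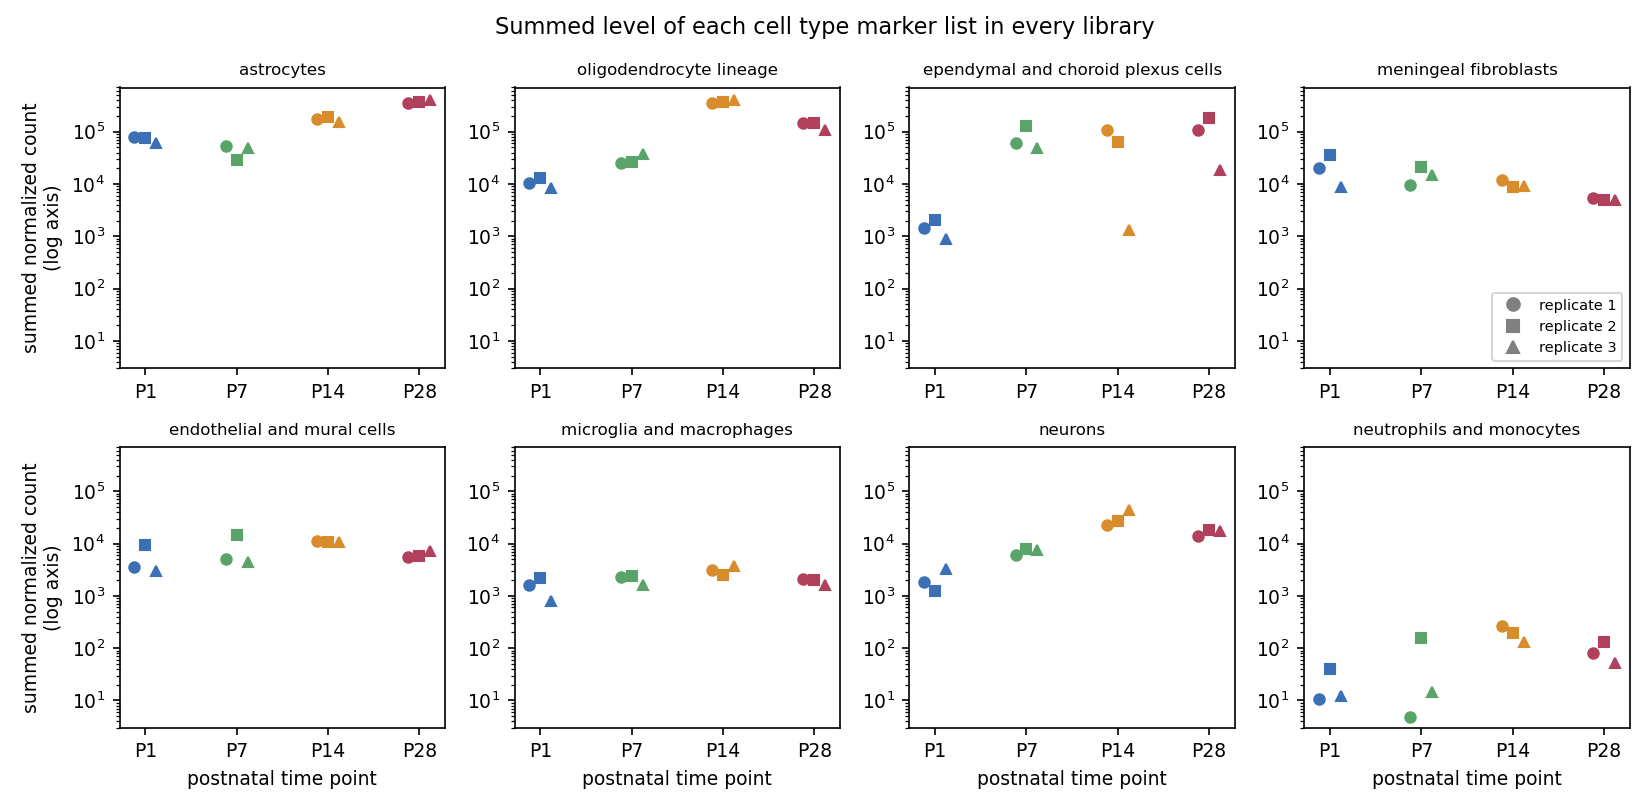
Summed normalized count of each cell type marker list (log axis) in every library, by postnatal time point, with one symbol per replicate. The oligodendrocyte lineage list peaked at P14, between 349066 and 399613, whereas the astrocyte list was highest at P28, between 349221 and 408484.

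One library stood apart for this gene family. Replicate 3 of P1 had the lowest value of its age for 7 of the 8 members, S100a4 being the exception, while replicate 2 of P1 had the highest for 6. The same replicate 3 was also lowest at P1 in the summed astrocyte, oligodendrocyte lineage, meningeal fibroblast, microglial, choroid plexus and endothelial markers and highest in the neuronal ones. Its values are given with each member, and results that turn on it are named.

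Between P1 and P28, 5 of the 8 members rose and 0 fell. In this comparison 14.6% of all genes tested rose and 20.0% fell, and the median log2 fold change was 1.90 over the members and -0.24 over all genes. S100b, S100a16, S100a13, S100a6 and S100a1 were the members that rose. S100a10 had an adjusted p of 0.064, and S100a11 and S100a4 had estimates of -0.14 and -1.57 with intervals that included 0. For 6 members the mean was highest at P28, whereas S100a11 had its highest mean at P1 and S100a4 at P7. Both of these means were raised by replicate 2 of that age. By median S100a11 was highest at P28 (729, against 708 at P1) and S100a4 at P1 (5.30, against 3.10 at P7).

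**Figure D2:**
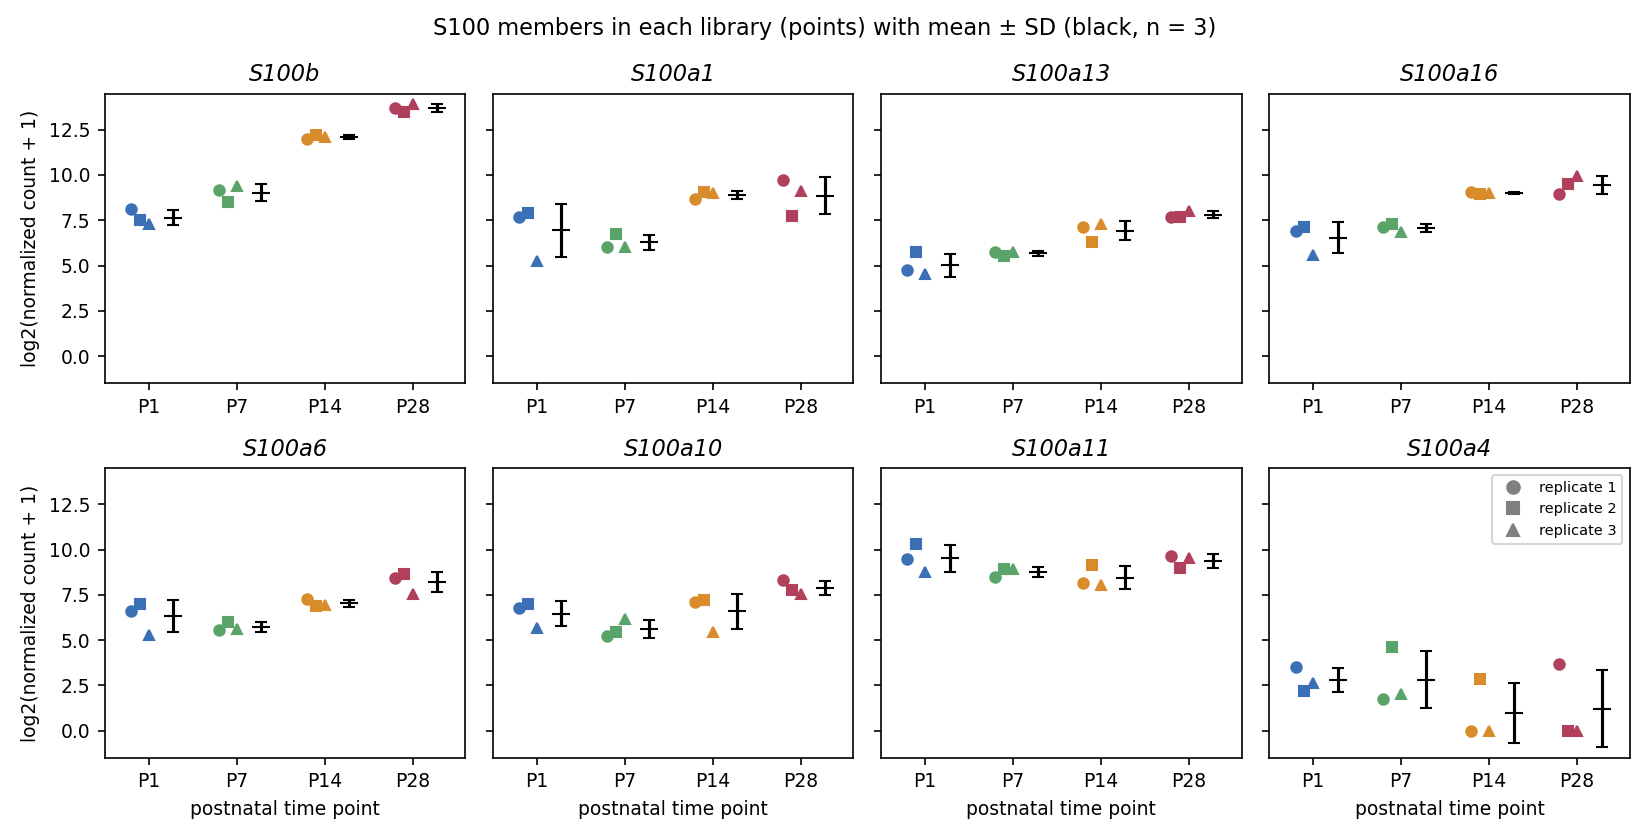
log2(normalized count + 1) of each member in every library by postnatal time point, with one symbol per replicate and the mean and SD (n = 3) in black. S100b climbed at each step without overlap between ages. S100a11 had its highest mean at P1, where replicate 2 lay above the others, and overlapped between each pair of ages but P7 and P28.

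S100b, the glial marker of the family, was the only member that rose at every step. Its normalized counts at P1 were 274, 185 and 154 in replicates 1, 2 and 3. They were 572, 366 and 670 at P7, then 3999, 4819 and 4370 at P14 and finally 13128, 11547 and 15333 at P28. Every library of an age lay above every library of the age before. The log2 fold change between P1 and P7 was 1.39 (SE 0.24, limma adjusted p = 0.00276), that between P7 and P14 was 3.07 (adjusted p = 1.16e-06) and that between P14 and P28 was 1.60 (adjusted p = 0.0012). From P1 to P28 this came to 6.05, or 66.4-fold with a 95% interval of 46.4 to 95.2, and S100b ranked 31 of 15464 genes by the size of its rise. Beside S100b, 8, 10 and 0 of the 13 oligodendrocyte lineage genes rose at the steps in turn and 2, 1 and 10 fell. Of the 10 astrocyte genes, 1, 8 and 7 rose and 7, 0 and 0 fell. Among all genes tested, 3.47%, 10.8% and 5.68% rose at these steps and 4.24%, 10.0% and 8.76% fell. What part either change in markers had in the course of S100b was not tested.

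Sequence upstream of S100b is shown because this gene carried the largest change of the family, together with that of S100a11, the member with the highest level at P1. Both are the 250 bases before the annotated start in RefSeq on GRCm38.p6, plus strand, and capitals mark every match on either strand to the TATA box TATAAA, the CCAAT box, the GC box GGGCGG, the AP-1 core TGANTCA or the E-box CACGTG.
S100b, chr10:76253586-76253835: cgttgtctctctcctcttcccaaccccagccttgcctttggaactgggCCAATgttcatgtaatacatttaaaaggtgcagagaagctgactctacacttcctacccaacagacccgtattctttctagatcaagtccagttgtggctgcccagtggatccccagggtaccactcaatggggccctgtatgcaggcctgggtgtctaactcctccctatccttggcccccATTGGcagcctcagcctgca
S100a11, chr3:93520246-93520495: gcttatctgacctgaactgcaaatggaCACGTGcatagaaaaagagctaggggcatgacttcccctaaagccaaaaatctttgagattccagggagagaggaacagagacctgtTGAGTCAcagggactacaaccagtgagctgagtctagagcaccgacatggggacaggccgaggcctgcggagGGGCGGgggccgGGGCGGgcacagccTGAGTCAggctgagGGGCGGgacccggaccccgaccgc
The S100b window held 2 matches to the CCAAT box, whose first letters lay 202 and 20 bases before the start, and none to the other motifs. The S100a11 window held 3 matches to the GC box, 2 to the AP-1 core and 1 to the E-box. Of the 32851 windows of this length in the table, 33.8% held the CCAAT box, 32.7% the GC box, 6.75% the AP-1 core, 6.02% the E-box and 12.4% the TATA box. These are matches of letters only. The RefSeq starts used here differ from the GENCODE starts given below, 76253853 for S100b and 93520488 for S100a11. The S100a11 window thus ends inside the gene as GENCODE places it. Windows were found for 7 of the 8 members, and S100a4 alone among them held the TATA box, 31 bases before its start.

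S100b lies on chromosome 10 at 76253853 to 76261159 of GRCm38, plus strand, and is annotated with a single transcript of 3 exons and 1484 bases. The gene Dip2a overlaps it on the opposite strand by 1731 bases, but the annotated exons of the genes share 0 bases. No run of 75 bases from the S100b transcript occurs in a transcript of another gene.

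The other 7 members lie on chromosome 3 in 2 groups, with positions on GRCm38 given in parentheses. S100a1, S100a13, S100a16, S100a4 and S100a6 span 113.1 kb, and 2.9 Mb further on S100a11 and S100a10 span 44.2 kb. S100a1 (90511034 to 90514392, minus strand) and S100a13 (90514435 to 90524581, plus strand) are read away from each other, and the 42 bases between their annotated starts are shown as the stretch that the neighbours share.
S100a1 to S100a13, chr3:90514393-90514434, plus strand: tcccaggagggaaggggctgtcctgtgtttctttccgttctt
It holds 0 matches to the motifs above, so there are no capitals in it.

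S100a1, a calcium sensor known for its action on ryanodine receptors and the sarcoplasmic reticulum calcium pump, rose at one step. Its normalized counts were 207, 236 and 37.1 at P1, 65.3, 106 and 64.3 at P7, 402, 538 and 506 at P14, and 848, 212 and 549 at P28. The P7 libraries all lay below those of P14, but replicate 3 of P1 was below every P7 library and replicate 2 of P28 lay between the higher P1 values. From P7 to P14 the log2 fold change was 2.63 (SE 0.62, adjusted p = 0.0074), or 6.20-fold with a 95% interval of 2.46 to 15.6. From P1 to P7 it was -0.67 (adjusted p = 0.67) and from P14 to P28 -0.05 (adjusted p = 0.971, interval of the fold 0.384 to 2.43). The rise from P1 to P28, 1.91 with an adjusted p of 0.0283, depended on single libraries: without replicate 3 of P1 it was 1.06 (adjusted p = 0.13), without replicate 1 of P28 1.47 (0.102) and without replicate 3 of P28 1.79 (0.0641). Groups of P1 and P28 overlapped. The low P28 replicate 2 had the highest summed choroid plexus and ependymal markers of its age, mostly Ttr. Their sum was 183681 against 105527 in replicate 1 and 18163 in replicate 3. Replicate 2 was also highest at P28 in the oligodendrocyte lineage, neuronal and neutrophil markers. Whether any of these had a part in the low value was not tested.

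S100a13, known for taking part in the release of the growth factor Fgf1 and other proteins that lack a signal peptide, rose over the whole course but passed the test at none of the single steps. It measured 25.8, 52.9 and 22.0 at P1, 53.3, 44.5 and 53.5 at P7, 141, 78.3 and 155 at P14, and 208, 204 and 260 at P28. P14 lay above P7 and P28 above P14 in every library. From P1 to P28 the log2 fold change was 2.80 (SE 0.49, adjusted p = 0.000576), or 6.95-fold. The estimates for the steps were 0.67 (adjusted p = 0.548), 1.24 (0.0924) and 0.89 (0.244). The step from P7 to P14 did pass with DESeq2 in place of limma (adjusted p = 0.0173). It also passed in a limma fit of only the time points compared (0.0438).

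S100a16 (90537254 to 90543151, plus strand), a broadly expressed member with a single working calcium-binding loop in each subunit, rose between P7 and P14. Its values were 121, 141 and 46.2 at P1 and 140, 156 and 114 at P7, which overlapped. At P14 they were 526, 486 and 513, all above P7, and at P28 492, 729 and 986, overlapping P14. The log2 fold change from P7 to P14 was 1.90 (SE 0.39, adjusted p = 0.00317), or 3.73-fold with a 95% interval of 2.08 to 6.69. From P1 to P28 it was 2.92 (adjusted p = 6.37e-05), while the first and last steps gave 0.55 (0.542) and 0.48 (0.45).

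S100a6 (90612882 to 90624181, plus strand), also called calcyclin and known for binding the Siah-interacting protein Cacybp, rose from P1 to P28. It measured 97.2, 127 and 38.6 at P1, 45.4, 64.1 and 47.3 at P7, 154, 118 and 121 at P14, and 339, 395 and 188 at P28. Libraries of P14 all lay above those of P7 and below those of P28, but replicate 3 of P1 lay below all of P7. The log2 fold change from P1 to P28 was 1.89 (SE 0.49, adjusted p = 0.00857), or 3.71-fold with an interval of 1.79 to 7.69. At the step to P14 it was 1.31 (adjusted p = 0.0737), a step that passed the test without replicate 3 of P1 (0.0456) or without replicate 3 of P28 (0.0454).

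S100a10 (93555080 to 93564643, plus strand), the member that forms a complex with annexin A2 and does not respond to calcium, passed no test. Its values were 106, 126 and 50.0 at P1 and 35.8, 41.9 and 71.3 at P7. They were 134, 148 and 43.4 at P14, and 313, 221 and 188 at P28. All P28 libraries were above all of the other ages, and replicate 3 of P14 lay among the P7 values. From P1 to P28 the log2 fold change was 1.41 (SE 0.56, adjusted p = 0.064, interval of the fold 1.16 to 6.12), and without replicate 3 of P14 the adjusted p was 0.0359. That library also had the lowest choroid plexus and ependymal sum of P14, mostly Ttr, at 1309.7 against 110080.4 and 64178. It was lowest at P14 in the astrocyte, endothelial and neutrophil markers too, and highest in the neuronal, oligodendrocyte lineage and microglial ones. What part these markers had was not tested. Anxa2, the gene of the partner, was picked out after its values were seen: its level was 511 ± 346 (SD, n = 3) at P1 and 62.1 ± 49.7 at P28, and it fell by 3.11 on the log2 scale (adjusted p = 0.00171). Of the other annexin genes on the list of partners, Anxa5 rose from P1 to P28 by 1.56 (adjusted p = 0.00398), Anxa7 by 1.14 (0.0369) and Anxa11 by 2.52 (0.00619), while Anxa1 and Anxa6 had estimates of -2.11 (0.104) and 0.15 (0.686).

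S100a11 (93520488 to 93526287, plus strand), another annexin-binding member, did not pass the test in any comparison. It measured 708, 1250.3 and 441 at P1, 352, 492 and 479 at P7, 281, 577 and 264 at P14, and 802, 495 and 729 at P28. The ranges of any pair of ages overlapped, except that P7 ended at 492 and P28 began at 495, and the estimates were -0.74 (adjusted p = 0.31), -0.32 (0.623) and 0.92 (0.115) at the steps in turn. From P1 to P28 the log2 fold change was -0.14 (adjusted p = 0.793), with an interval of the fold from 0.519 to 1.58. The highest P1 value was in replicate 2. That library had the highest P1 sum of every marker list except the astrocyte and neuronal ones. For meningeal fibroblasts the sum was 35516.5 against 19837 and 8580 in the others. Whether any of these cells had a part in the value was not tested. Of the 437 runs of 75 bases in the S100a11 transcript, 165 (37.8%) also occur in the annotated genes Gm12854 or Gm7665, which have no row in the table, and how the counting treated such reads is not stated, so its level is uncertain.

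S100a4 (90603771 to 90606045, plus strand), a member linked to cell motility and known from fibroblasts and immune cells, was near the limit of detection. Over the 3 libraries of each age, in order, it had 29, 25, 6 and 8 reads. Its values were 10.5, 3.57 and 5.30 at P1, 2.39, 23.6 and 3.10 at P7, 6.35 in replicate 2 of P14 and 11.7 in replicate 1 of P28, with 0 in the other libraries of P14 and P28. A library without a read can still hold up to 3 reads, which amounts to a value of 3.18 to 4.06 in these 4 libraries, covering counting error only. S100a4 passed no test, and its estimate from P1 to P28 was -1.57 (adjusted p = 0.329). That estimate ran from -3.60 with a pseudocount of 0.1 to -0.32 with one of 10, and from -2.79 to -0.96 with libraries left out, and no alternative run gave a call. Of its annotated exon bases, 51.7% are shared with Gm42674 on the same strand, a gene with no row in the table.

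**Figure D3:**
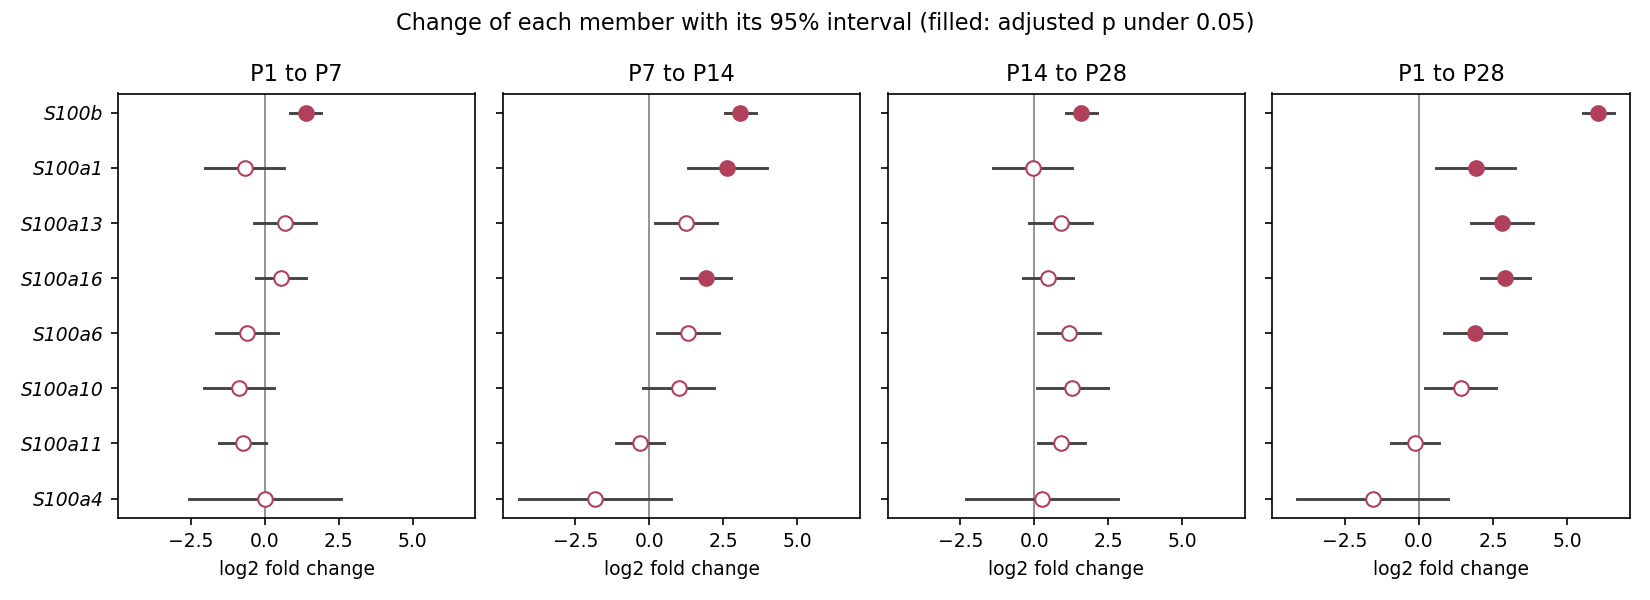
log2 fold change (later minus earlier age) of each member with its 95% interval from limma, one panel per comparison, filled where the adjusted p was under 0.05. S100b was filled in every panel, S100a1 and S100a16 also from P7 to P14, and 5 members from P1 to P28.

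Step by step, the members changed most between P7 and P14. From P1 to P7, 1 member (S100b) rose and 0 fell, beside 3.47% and 4.24% of all genes, and the member median was -0.29 against 0.04 for all genes. From P7 to P14, S100b, S100a1 and S100a16 rose and 0 fell, beside 10.8% and 10.0%, with medians of 1.27 and -0.09. From P14 to P28, 1 member (S100b) rose and 0 fell, beside 5.68% and 8.76%, with medians of 0.90 and -0.12. The estimates were above 0 for 4, 6 and 7 members at the steps in turn. Neighbouring steps share the libraries of the age between them, so their estimates are not independent of each other.

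The make-up of the family changed with age. Levels between genes are compared per kb of annotated exon. S100a11 stood highest at P1, at 1565 normalized counts per kb ± 807 (SD, n = 3), and made up 71.2% ± 5.98 of the summed level of the 8 members, against 7.11% ± 2.87 for S100b. At P7 the shares were 54.1% ± 4.66 and 22.9% ± 6.89. At P14 the order had turned, with 58.6% ± 2.30 for S100b and 14.1% ± 4.77 for S100a11, and at P28 S100b held 73.3% ± 3.48 and S100a11 10.7% ± 1.47. The age of this turn depended on the division by length: without it S100b held 39.4% and S100a11 32.6% at P7, where the libraries of these genes overlapped in their normalized counts. The ranges of the shares per kb over the libraries did not overlap between S100b and S100a11 at any age.

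S100b at P28 reached 8986 normalized counts per kb ± 1281 (SD, n = 3), rank 31 among 14829 tested genes with a known length, up from rank 2806 at P1. S100a11 stayed between ranks 105 and 325. Without S100b, the summed level of the other 7 members was 2059 ± 1051 per kb (SD, n = 3) at P1 and 1227 ± 197 at P7, then 2104 ± 372 at P14 and 3293 ± 734 at P28. In the order of levels at P28, S100a11, S100a1, S100a16, S100a13, S100a6 and S100a10 followed S100b, the libraries of each neighbouring pair among these 6 overlapping, and S100a4 came last and apart from the rest. The places of S100a6 and S100a10 rested on the length used. With the longest transcript as length their P28 shares were 3.20% and 2.77%, against 1.92% and 1.64% with all annotated exons.

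**Figure D4:**
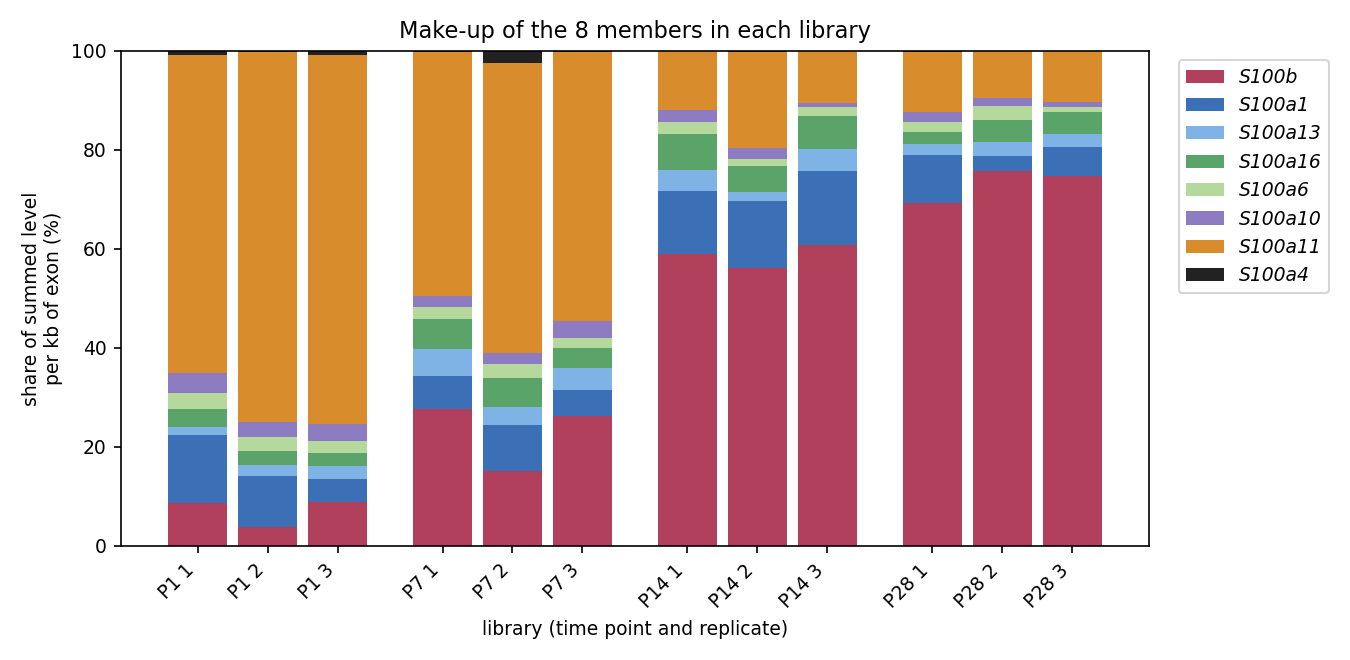
Share (%) of each member in the summed normalized count per kb of exon of the 8 members, one bar per library. S100a11 (orange) took 64.2% to 74.7% of the P1 bars, and S100b (red) 69.3% to 75.8% of the P28 bars.

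Other S100 genes were almost silent. The table holds 9 further symbols of the family, of which 0 passed the filter on low values, and S100a2, S100a5 and S100z had no read in any library. S100a14, S100a3, S100a7a and S100g did not exceed 14.2 in any library. S100a8 and S100a9, the calprotectin subunits typical of neutrophils and monocytes, stood out in single libraries. S100a8 reached 51.0 in replicate 2 of P7 and 58.2 in replicate 1 of P14, and S100a9 60.2 and 33.9 in the same ones, against at most 6.52 and 5.29 elsewhere. Within their ages these were also the libraries with the highest summed neutrophil and monocyte markers, 156 at P7 and 268 at P14.

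Genes whose proteins S100 members are known to bind moved in both directions. Of the 22 tested, the steps in turn had 1, 6 and 2 that rose, beside 3.47%, 10.8% and 5.68% of all genes, and 1, 2 and 1 that fell, beside 4.24%, 10.0% and 8.76%. Between P1 and P28, 8 rose and 4 fell, beside 14.6% and 20.0% of all genes. Their medians were -0.08, 0.20 and -0.02 at the steps and 0.30 from P1 to P28, against 0.04, -0.09, -0.12 and -0.24 for all genes. Fgf1, the growth factor released with S100a13, rose from 200 ± 65.5 (SD, n = 3) at P7 to 1292 ± 34.4 at P14 and 2691 ± 800 at P28, by 2.74 (adjusted p = 2.3e-05) and then 1.01 (0.0412) on the log2 scale. Ager, the receptor known as RAGE for released S100 proteins, fell from 55.3 ± 21.3 at P1 to 9.80 ± 15.0 at P28 (log2 fold change -3.56, adjusted p = 0.0186). Among the ryanodine receptors, Ryr2 rose by 1.66 at the first step (adjusted p = 0.00168) and Ryr3 fell from P14 to P28 by 2.33 (adjusted p = 0.00265).

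The most abundant partner genes were Hspa8, Atp2a2, Ahnak and Capzb. Atp2a2, the calcium pump of the endoplasmic reticulum, fell by 0.56 at the first step (adjusted p = 0.0177) and rose by 0.65 at the second (0.00267). Capzb, a subunit of the actin capping protein, rose by 0.62 and 0.81 at the last 2 steps (0.0197 and 0.00833), and by 1.25 from P1 to P28 (8.13e-05). Hspa8, a chaperone, rose by 0.69 from P1 to P28 (0.00608), and Ahnak, a scaffold protein, had an estimate of -0.72 (0.0699). The calcium channel Trpv6 fell from 38.9 ± 21.9 at P7 to 1.06 ± 1.83 at P14 (adjusted p = 0.00676). Its P14 mean was below the value of 3 reads in a P14 library, 3.17 to 3.26.

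Other EF-hand calcium sensors and buffers were measured beside the family. Of 35 tested, the steps in turn had 2, 13 and 3 that rose, beside 3.47%, 10.8% and 5.68% of all genes, and 2, 1 and 3 that fell, beside 4.24%, 10.0% and 8.76%. Between P1 and P28, 10 rose and 3 fell, beside 14.6% and 20.0%. The median was -0.25 at the first step and -0.44 at the last, below that of all genes (0.04 and -0.12), and 0.65 at the middle step and 0.49 from P1 to P28, above it (-0.09 and -0.24). Kcnip3, the potassium channel and transcription modulator also called DREAM, was among the most abundant and rose from 2603 ± 494 (SD, n = 3) at P7 to 7926 ± 1209 at P14 (adjusted p = 5.13e-05). The calmodulin gene Calm2 rose from 1297 ± 189 at P1 to 2956 ± 65.1 at P7 (adjusted p = 0.00358). Rcn2, a calcium binder of the secretory pathway, rose by 0.65 from P14 to P28 (0.036).

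Some EF-hand genes are known mainly from neurons. The largest rise of the list within a comparison was that of Vsnl1 from P7 to P14, of Hpca from P1 to P7, of Ncs1 from P14 to P28 and of Efhd1 from P1 to P28. Vsnl1 rose by 5.04 from P7 to P14 (adjusted p = 2.84e-06) and Hpca by 3.18 from P1 to P7 (0.0111). From P7 to P14 Hpca had an estimate of -1.48 (0.161). Of the 9 neuronal marker genes, 4, 6 and 0 rose at the steps in turn, beside 3.47%, 10.8% and 5.68% of all genes. In the same order 0, 1 and 3 fell, beside 4.24%, 10.0% and 8.76%. Pvalb and Calb1 are on both the neuronal and the EF-hand list, so these lists are not independent. From P7 to P14 Pvalb rose by 3.01 (limma adjusted p = 0.00495), and Calb1 had an estimate of 0.66 (0.448). Whether neuronal cells had a part in the EF-hand changes was not tested. Efhd1, a mitochondrial calcium sensor, rose by 4.46 from P1 to P28 (adjusted p = 3.82e-06), and Ncs1 by 1.07 from P14 to P28 (0.0165). The largest falls within a comparison were those of Kcnip2 from P1 to P7 (fell by 3.23, adjusted p = 0.016), Rcn1 from P7 to P14 (fell by 1.22, 0.00889), Necab3 from P14 to P28 (fell by 2.02, 0.0077) and Necab2 from P1 to P28 (fell by 4.11, 0.00876). Kcnip2 ended low, at 8.08 ± 6.07 (SD, n = 3) at P7. Necab2 went from 39.0 ± 19.8 at P1 to 2.92 ± 5.06 at P28, below the value of 3 reads in a P28 library, 3.54 to 4.38.

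For each member the genes with the most similar course were those whose log2 values, centred on their own mean, differed least from it on average over the 12 libraries, among 15463 genes. For S100b these were Frrs1l, Aldh1a1 and Gria1, with mean absolute differences of 0.28, 0.28 and 0.40. Aldh1a1 went from 162 ± 58.4 (SD, n = 3) at P1 to 7387 ± 892 at P28. For S100a1 they were Hdac11, Adra2a and Cyp27a1 (0.44 to 0.50) and for S100a13 Hist1h2bc, Cpeb3 and Rhbdd1 (0.23 to 0.29). For S100a16 they were Gng11, Serpinb9 and Rarres2 (0.25 to 0.30), of which Rarres2 is also on the choroid plexus and ependymal list. For S100a6 they were Pde7b, Tpp1 and Klhl26 (0.26 to 0.27). S100a10 was closest to Aldh2, Shisa5 and Gm5523 (0.32 to 0.35), S100a11 to Arhgef18, Rarb and Tbc1d12 (0.26 to 0.30) and S100a4, at much lower counts, to Zglp1, Klhl21 and Tcte1 (0.58 to 0.68). These are descriptions over libraries that all genes share, and no member was among the nearest genes of another.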

How the data were processed

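RNA of GFP-sorted cerebellar cells was made into libraries from total RNA, with polyA RNA given as the molecule in the labels, with the Trio RNA-Seq kit and sequenced in pairs. The authors aligned reads to mm10 with STAR (version 2.5.0a), counted them per gene on UCSC transcripts and normalized them with DESeq2 (version 1.30.1 in the submitters' processing notes, while the study's methods name another version). The deposited values are thus a signal in units of normalized counts. The handling of strand and of reads shared between genes is not given in the sources used here. Dividing each library by its smallest value gave whole reads for 100% of values within 0.01, used for depth and for count-based alternatives. Columns were matched to libraries through the names in the labels. Every column name carries P28 whatever the age, so each age rests on the sample description alone.

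Main tests used limma 3.58.1 (R 4.3.3) on log2(value + 1), with one fit over the 12 libraries, a variance trend and 4 contrasts. Alternatives were edgeR 4.0.16, DESeq2 1.42.0, other scalings, pseudocounts (0.1 and 10), filters and thresholds, the replicate number as a block, and each library left out. The fits were tested on simulated data. Positions and lengths came from GENCODE M21 on GRCm38, the build of mm10, and promoters from RefSeq. Named genes outside the family are, per list, the 4 most abundant and the largest called rise and fall per comparison, plus the 3 genes closest to each member. Anxa2 and the other annexins are named outside this rule, as are Pvalb and Calb1. One gene that this rule names is not reported here. The members and lists were chosen with earlier results of these data known. No list was tested as a set.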

Additional observations from a re-analysis of the deposited data

How the results depend on the processing

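S100b kept its rise in all comparisons under each of the 24 alternatives run. The number of members called from P7 to P14, 3 in the values reported, was 5 with DESeq2 on recovered reads, with a fit of only the time points compared, and at an unadjusted p under 0.05 with a log2 fold change over 0.75. The members added each time were S100a6 and S100a13. From P14 to P28, 1 became 2 with DESeq2, which added S100a6 (adjusted p = 0.0397), and 4 at the unadjusted threshold. With each library left out, the counts ranged from 1 to 1 (P1 to P7), 3 to 4 (P7 to P14), 1 to 2 (P14 to P28, where leaving out replicate 2 of P14 added S100a11 at an adjusted p of 0.0499) and 4 to 6 (P1 to P28). A replicate block left the counts at 1, 3, 1 and 5. The replicate numbers did not meet the bar for pairing, a correlation of deviations above 0.1 in every same-numbered pair, which 1 of 18 pairs passed, although 9 of 12 libraries correlated best with their own number, a hint from the data and not from the design.

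Signs changed only for members that passed no test in that comparison. S100a1 from P14 to P28 was 0.14 with edgeR and TMM and 0.15 with DESeq2 or its size factors, and -0.49 to 0.51 with libraries left out. S100a4 from P1 to P7 was -0.051 with a pseudocount of 0.1, and -0.89 to 0.54 with libraries left out, and from P14 to P28 -0.96 to 1.22. S100a11 from P1 to P28 ranged from -0.51 to 0.24. S100a1 from P1 to P28 also lost its call with library totals alone (1.48, adjusted p = 0.0677) and with only the time points compared (0.107), and S100a10 gained one with DESeq2 (0.0314). Scaling by totals moved the median of all genes from -0.24 to -0.66 for P1 to P28. A value of at least 10 in every library left S100a4 out. Shares moved in 31 of 160 settings, all with another length, and without division by length S100b held 15.3% at P1, 39.4% at P7 and 83.0% at P28. The cause of these changes was not tested. The few reads of S100a4 and of the silent family members limit what can be said of them.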
